A study of Mus musculus with 6 samples.

Results

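Insulin-like growth factor (IGF) signalling was followed through 8 genes in cultured cells of the fetal mouse heart: the ligand gene Igf1, its receptor gene Igf1r, and the genes of 6 secreted binding proteins, Igfbp2 to Igfbp7. All 8 had a row among the 15159 genes of the count table, and all 8 passed the filter on low counts. The genes were chosen by family name, with earlier results of these same 6 libraries known, so their counts scaled by library size in the mutant and wild-type cells are a description here and carry no test. The mutant group, H3K9M, consisted of 3 libraries of embryonic cardiac cells with inducible histone H3.3 carrying methionine at lysine 9, labelled as suppressed in H3K9 methylation. The other group, H3WT, consisted of 3 libraries of such cells with inducible wild-type H3.3. Both groups came from C57BL/6 x 129S4/SvJae embryos at day 18.5. Cells of both groups were plated at 50000 cells per cm2, received doxycycline at 2 µg/ml on days 0, 1 and 2 and were collected after 4 days on silicone (PDMS) of 13 kPa, a soft substrate. Both groups therefore carried an H3.3 transgene and both were exposed to doxycycline and serum. The culture protocol given is the same for all 6 libraries, but the titles of both replicate 1 libraries lack a D4 tag that the others carry, and those of both replicate 2 libraries lack the word Soft. The sources used here name neither the promoter of the transgene nor the number of embryos behind a library, so the spread between libraries may be partly technical. Polyadenylated RNA was sequenced.

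IGF1 and the related ligand IGF2 act on the tyrosine kinase receptor IGF1R, which signals through insulin receptor substrates to PI3K and AKT and supports growth and survival of cardiac cells. The binding proteins hold IGFs outside the cell. They prolong the life of the ligand and keep it from the receptor, and several are cut by proteases that set the ligand free. IGFBP2 and IGFBP5 can also bind matrix components, IGFBP6 prefers IGF2 over IGF1, and IGFBP7 binds IGFs only weakly and is abundant in vessels and stroma. Lysine 9 of histone H3 is methylated in silenced chromatin. Its methylation was not measured in these libraries.

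The libraries held 55550379 to 67994773 counts. Levels are given as CPM, counts scaled to a common library size with TMM factors, and 14758 genes were compared with the quasi-likelihood test of edgeR. The heart label fits the markers: the 10 cardiomyocyte genes listed summed to 28435 to 32090.0 CPM in H3K9M and 26722 to 32901 CPM in H3WT, and all 10 were measured. None of 4 erythroid and none of 4 epithelial markers had a row. Summed levels of 10 fibroblast genes overlapped between the groups (11960 to 18818 CPM in H3K9M, 13106 to 19780 CPM in H3WT), whereas those of 10 endothelial and endocardial genes did not (121 to 189 CPM in H3K9M, 215 to 279 CPM in H3WT). H3K9M replicate 1 stood apart in the summed level of 10 immediate early and stress genes, at 1231 CPM against 377 and 382 CPM in the other H3K9M libraries and 304 to 444 CPM in H3WT. Egr1 alone was at 653 CPM there, whereas Atf3 and Hspa1a did not set that library apart. H3WT replicate 1 stood apart in the summed level of 10 macrophage and leukocyte genes, at 504 CPM against 268 and 138 CPM in the other H3WT libraries and 206 to 265 CPM in H3K9M. It also had the lowest level of Xist, the RNA of the inactive X chromosome (71.3 CPM, against 376 and 353 CPM in the other H3WT libraries and 136 to 265 CPM in H3K9M). The Y-linked genes Ddx3y, Eif2s3y, Kdm5d and Uty were all highest in that library. Ddx3y was at 73.4 CPM there, against 33.3 and 29.5 CPM in the other H3WT libraries and 41.6, 29.0 and 55.6 CPM in H3K9M.

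The ligand gene Igf1 was at similar levels in both groups. It stood at 38.8, 46.8 and 57.8 CPM in the H3K9M libraries and at 58.0, 52.1 and 42.4 CPM in the H3WT libraries. These ranges overlap almost completely, and the log2 fold change of H3K9M over H3WT was -0.09 ± 0.16 (SE, n = 3 each). In these bulk samples, fewer cells of a type and less RNA per cell cannot be told apart. Igf1 moved from library to library together with the fibroblast list: for every 1000 CPM of that list there were 3.25, 2.89 and 3.07 CPM of Igf1 in H3K9M and 2.93, 2.99 and 3.24 CPM in H3WT. Igf1 is on chromosome 10 at 87858265 to 87937042 (GRCm38, GENCODE M21, as for all positions of whole genes here), where it overlaps an antisense gene without sharing exon bases.

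The receptor gene Igf1r was lower in every H3K9M library, by a small margin. Its level was 266, 247 and 275 CPM in H3K9M, against 317, 323 and 339 CPM in H3WT. The 2 ranges do not touch and each is narrow, with means of 262.7 ± 14.1 CPM in H3K9M and 326.3 ± 11.6 CPM in H3WT (SD, n = 3). The log2 fold change was -0.31 ± 0.08 (SE), the mutant cells having 0.805 times the wild-type level. Igf1r lies on chromosome 7 at 67952827 to 68233668.

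**Figure D1:**
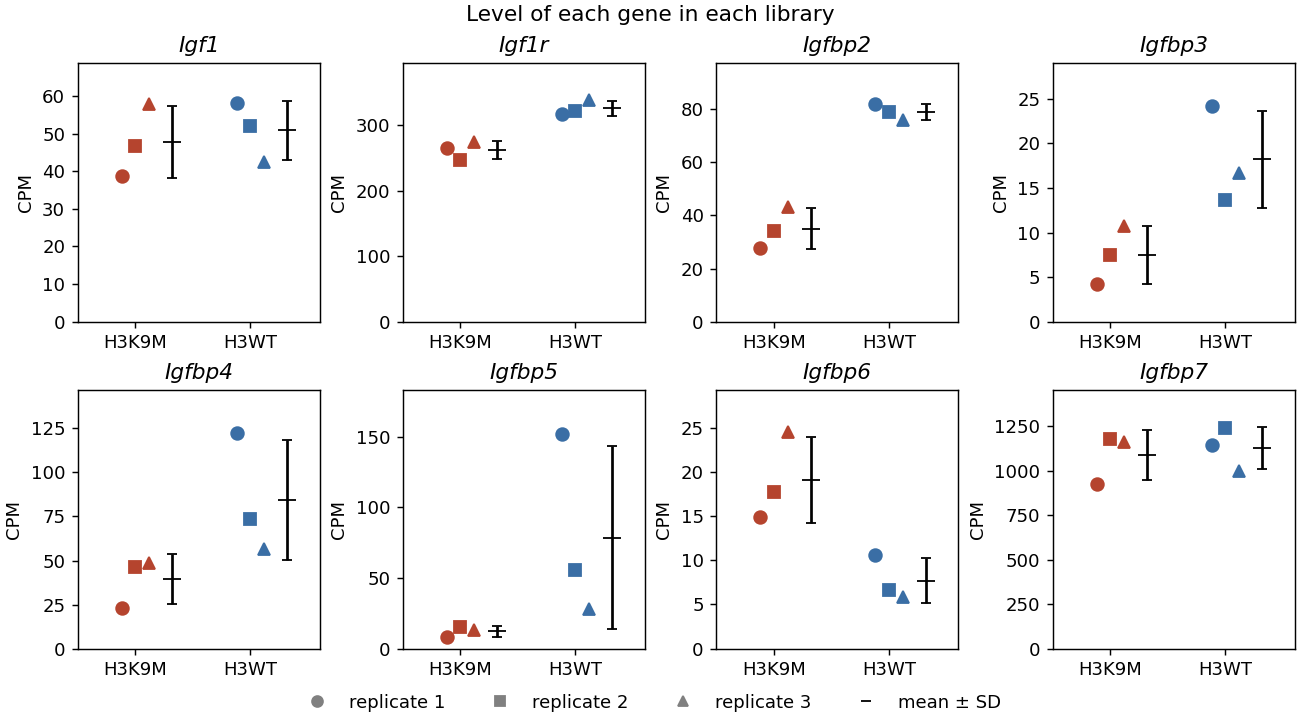
Level of each of the 8 genes in CPM (linear axes from 0, a scale of its own for each gene) in the 3 H3K9M and the 3 H3WT libraries, with the mean and SD of each group in black. Igf1 and Igfbp7 overlap between the groups, Igfbp6 lies higher in all 3 H3K9M libraries and the other 5 genes lie lower in all 3, with Igfbp5 spread from 28.3 to 152 CPM within H3WT.

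Of the binding proteins, 4 were lower in all H3K9M libraries: Igfbp2, Igfbp3, Igfbp4 and Igfbp5. Igfbp2 showed the narrowest groups of these by the ratio of the highest to the lowest library, 1.57 in H3K9M and 1.08 in H3WT. It measured 27.7, 34.2 and 43.3 CPM in H3K9M and 81.9, 79.0 and 76.05 CPM in H3WT, so the highest H3K9M library was well under the lowest H3WT library. The log2 fold change was -1.17 ± 0.15 (SE), with 0.444 times the wild-type level in the mutant.

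Igfbp5 had the lowest log2 fold change of the 8 genes and the widest spread in the wild type. It stood at 8.20, 15.2 and 13.0 CPM in H3K9M, against 152, 55.6 and 28.3 CPM in H3WT. The H3K9M libraries are close together and under every H3WT library, while the highest H3WT library had 5.36 times the level of the lowest. The log2 fold change was -2.69 ± 0.55 (SE), the 25th lowest of the 14758 genes tested. Without H3WT replicate 1 it was -1.79, so that library alone moved the size of the difference by more than its SE. H3WT replicate 1 is also the library with the high macrophage, low Xist and high Y-linked levels given above. Several fibroblast markers were highest there as well, among them Dpt, a matrix protein, with 18.0, 28.5 and 42.6 CPM in H3K9M and 160.6, 50.9 and 25.7 CPM in H3WT, and Tcf21, a transcription factor, with 41.2, 61.3 and 57.9 CPM in H3K9M and 153.6, 93.7 and 49.1 CPM in H3WT. Both follow the order of Igfbp5 within H3WT, but unlike Igfbp5 their groups overlap. Other genes of the fibroblast list went another way. Col1a1, Col1a2, Postn and Ddr2 were highest in H3K9M replicate 3. Postn was lowest of the H3WT libraries in replicate 1, at 1075 CPM against 1428 and 1334 CPM. The part of any of these in the Igfbp5 level was not tested.

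Igfbp2 and Igfbp5 are neighbours on chromosome 1 that point towards each other. Igfbp2 spans 72824503 to 72852474 on the forward strand and Igfbp5 spans 72857932 to 72874884 on the reverse strand, with 5457 bases between their ends, so their promoters lie at the far sides of the pair. The 250 bases before each RefSeq start are shown for both (GRCm38.p6, 5′ to 3′ along the gene's own strand), since both genes of the pair were lower, followed by those of Igfbp4, which was lower too, and of Igfbp6, which was higher. Capitals mark the motif GGGCGG, the motif TATAAA or the motif GGAATG, on either strand.
Igfbp2, chr1:72824230-72824479, forward strand: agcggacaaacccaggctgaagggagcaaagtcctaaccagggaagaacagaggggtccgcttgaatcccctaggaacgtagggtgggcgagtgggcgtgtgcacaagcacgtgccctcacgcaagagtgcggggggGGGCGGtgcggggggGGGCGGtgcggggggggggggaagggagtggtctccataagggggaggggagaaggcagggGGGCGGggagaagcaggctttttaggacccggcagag
Igfbp5, chr1:72874866-72875115, reverse strand: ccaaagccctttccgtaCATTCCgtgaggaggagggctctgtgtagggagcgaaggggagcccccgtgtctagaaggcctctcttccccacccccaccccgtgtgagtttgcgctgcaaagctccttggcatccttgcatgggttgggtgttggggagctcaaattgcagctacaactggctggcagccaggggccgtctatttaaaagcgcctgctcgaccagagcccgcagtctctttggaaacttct
Igfbp4, chr11:99040994-99041243, forward strand: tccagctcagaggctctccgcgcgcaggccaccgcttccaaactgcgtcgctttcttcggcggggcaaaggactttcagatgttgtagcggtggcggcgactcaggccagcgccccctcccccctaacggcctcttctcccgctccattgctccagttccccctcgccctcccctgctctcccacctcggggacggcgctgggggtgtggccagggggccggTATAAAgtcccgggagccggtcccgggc
Igfbp6, chr15:102143936-102144185, forward strand: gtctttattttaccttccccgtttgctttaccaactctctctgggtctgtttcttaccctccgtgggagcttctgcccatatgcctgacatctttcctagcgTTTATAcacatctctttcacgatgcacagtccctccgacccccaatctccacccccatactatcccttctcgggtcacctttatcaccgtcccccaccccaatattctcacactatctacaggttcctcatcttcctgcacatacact

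The windows of the neighbouring pair differ. That of Igfbp2 holds GGGCGG, the core of a GC box, 3 times, the nearest beginning 37 bases before the start, and 14 CpG dinucleotides. That of Igfbp5 holds no GGGCGG, 10 CpG dinucleotides and 1 GGAATG, the core of TEAD sites, as its reverse complement 233 bases before the start. Igfbp4 has 22 CpG dinucleotides and the motif TATAAA, known from core promoters, 28 bases before its start. Igfbp6 has the fewest CpG dinucleotides of the 4, 7, and 1 TATAAA as its reverse complement 148 bases before the start. Over all 32851 promoter windows of the table, the median number of CpG dinucleotides was 6, and 32.7% held GGGCGG, 12.4% TATAAA and 12.6% GGAATG on either strand. TGTTTAC, a FOXO site present in 3.17% of windows, was in none of the windows of the 8 genes. A second RefSeq start of Igfbp2 has 11 CpG dinucleotides and none of the 4 motifs. The windows of the remaining genes had 42 CpG dinucleotides in Igf1r, 32 in Igfbp3, 26 in Igfbp7 and 5 in Igf1. The 5 genes that were lower in H3K9M thus range from 10 to 42 in their first window, on both sides of the 26 of Igfbp7, whose groups overlapped. Igf1, whose groups also overlapped, and Igfbp6, which was higher, lie under all 5 of them, with 5 and 7. For some genes the RefSeq start used here differs from the GENCODE start. The Igf1 window (87860861 to 87861110) lies inside the GENCODE gene, which starts at 87858265. The windows of Igfbp6 and Igf1r end at 102144185 and 67952256, short of the GENCODE starts at 102144362 and 67952827. A relation between CpG number and direction was not tested.

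Igfbp3 encodes the main carrier of circulating IGFs and was the least abundant member by CPM in H3K9M. Its level was 4.23, 7.52 and 10.7 CPM in H3K9M, against 24.2, 13.7 and 16.7 CPM in H3WT. Every H3K9M library was under every H3WT library, with a gap smaller than the spread within either group. The log2 fold change was -1.28 ± 0.33 (SE). Igfbp3 lies on chromosome 11 at 7206086 to 7213923, next to Igfbp1, which had no row.

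Igfbp4, an inhibitor of IGF action that is cut by the protease PAPP-A, was also lower throughout, though its groups nearly met. It measured 23.2, 46.5 and 48.8 CPM in H3K9M and 122.6, 73.7 and 56.7 CPM in H3WT. The log2 fold change was -1.09 ± 0.33 (SE), and -0.73 without H3WT replicate 1. With only replicates 2 and 3 of both groups, a choice made after seeing the data, it was -0.45. Both replicate 1 libraries thus widen the difference in Igfbp4. The gene lies on chromosome 11 at 99041244 to 99054392.

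Igfbp6 was the 1 member with a higher level in H3K9M. It stood at 14.9, 17.8 and 24.5 CPM in H3K9M, against 10.6, 6.67 and 5.79 CPM in H3WT. The lowest H3K9M library was above the highest H3WT library. The log2 fold change was 1.31 ± 0.26 (SE), or 2.48 times the wild-type level in the mutant. It was 1.76 with only replicates 2 and 3 of both groups. Igfbp6 lies on chromosome 15 at 102144362 to 102149511.

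Igfbp7 was by far the most abundant member and did not separate the groups. Its level was 924, 1177 and 1159.6 CPM in H3K9M and 1143, 1239 and 1000.04 CPM in H3WT. The ranges overlap and the log2 fold change was -0.05 ± 0.12 (SE). The gene, on chromosome 5 at 77349240 to 77408041, shares 85 exon bases with Polr2b on the other strand, and the strand setting of the counting is not given, so a few reads of the 2 genes may be mixed.

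**Figure D2:**
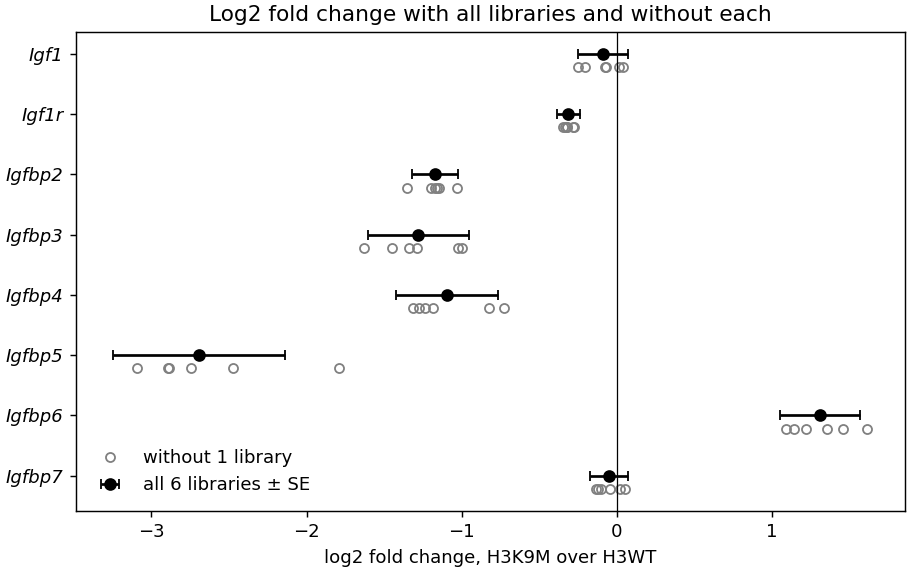
Log2 fold change of H3K9M over H3WT for the 8 genes from the edgeR fit over all genes, with all 6 libraries (black, bars show the SE) and without each library in turn (open grey circles). Igfbp2 to Igfbp5 and Igf1r stay under 0 and Igfbp6 above 0 in all 6 fits, whereas Igfbp5 moves between -3.09 and -1.79.

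Set against all genes, 5 of the 8 members did not overlap between the groups with H3K9M lower and 1 did not with H3K9M higher, where 11.3% of the 14758 tested genes were of each kind. Among genes called by edgeR at an adjusted p under 0.05 were Igfbp2 on the lower side (1.05% of all tested genes) and Igfbp6 on the higher side (0.935%). The Igfbp6 call was kept in 1 of 6 fits without 1 library and that of Igfbp2 in 4 of 6. Since the members were proposed with this comparison in view, nothing is read from these counts. Fold changes in the authors' deposited table, made with DESeq2, had the same signs: -2.69 for Igfbp5, -1.40 for Igfbp3, -1.15 for Igfbp2, -1.07 for Igfbp4, -0.30 for Igf1r, -0.19 for Igf1, -0.06 for Igfbp7 and 1.39 for Igfbp6. That table comes from the same libraries.

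Between genes, levels can be compared only per length, here as CPM per kilobase of annotated exon. Igfbp7 led in both groups, at 899 ± 117 in H3K9M and 932 ± 99.4 in H3WT (SD, n = 3). In H3K9M it was followed by Igfbp2 (18.98 ± 4.26), Igfbp6 (17.1 ± 4.4) and Igf1r (15.6 ± 0.84), whose ranges overlapped. Then came Igfbp4 (8.94 ± 3.21), which overlapped with Igf1 (4.83 ± 0.96), and last Igfbp3 (2.40 ± 1.04) and Igfbp5 (2.02 ± 0.60), which overlapped each other. In H3WT, Igfbp2 stood clear of the rest at 42.8 ± 1.59. Below it, Igf1r (19.4 ± 0.69), Igfbp4 (19.1 ± 7.75), Igfbp5 (13.1 ± 10.8), Igfbp6 (6.92 ± 2.31), Igfbp3 (5.82 ± 1.74) and Igf1 (5.13 ± 0.80) each overlapped with the next. Igfbp6 held place 3 of 8 in H3K9M and place 6 in H3WT, and Igfbp5 held place 8 in H3K9M and place 5 in H3WT. With the longest transcript as length, Igfbp6 held place 4 in H3K9M and place 8 in H3WT.

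The mixture of binding proteins can also be read within each library, where no scaling between libraries enters. Of the summed CPM per kilobase of Igfbp2 to Igfbp7, Igfbp7 made up 93.9% to 95.5% in H3K9M and 89.2% to 92.8% in H3WT. Among the remaining 5, Igfbp6 took 36.9%, 31.98% and 35.4% in H3K9M, against 8.33%, 7.58% and 7.52% in H3WT. Within each group the Igfbp6 share hardly varied. Igfbp5 took 3.75%, 5.08% and 3.48% in H3K9M, against 22.04%, 11.7% and 6.81% in H3WT. The share of Igfbp2 overlapped between the groups, at 37.0% to 41.2% in H3K9M and 38.7% to 59.4% in H3WT, as did that of Igfbp4 (14.4% to 21.1% in H3K9M, 18.5% to 24.2% in H3WT). In absolute terms the 5 genes summed to 36.4, 49.9 and 62.1 CPM per kilobase in H3K9M and to 114.7, 79.1 and 69.3 CPM per kilobase in H3WT. The ratio of Igfbp6 to Igfbp5, per kilobase, was 9.85, 6.29 and 10.2 in H3K9M and 0.378, 0.648 and 1.10 in H3WT.

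**Figure D3:**
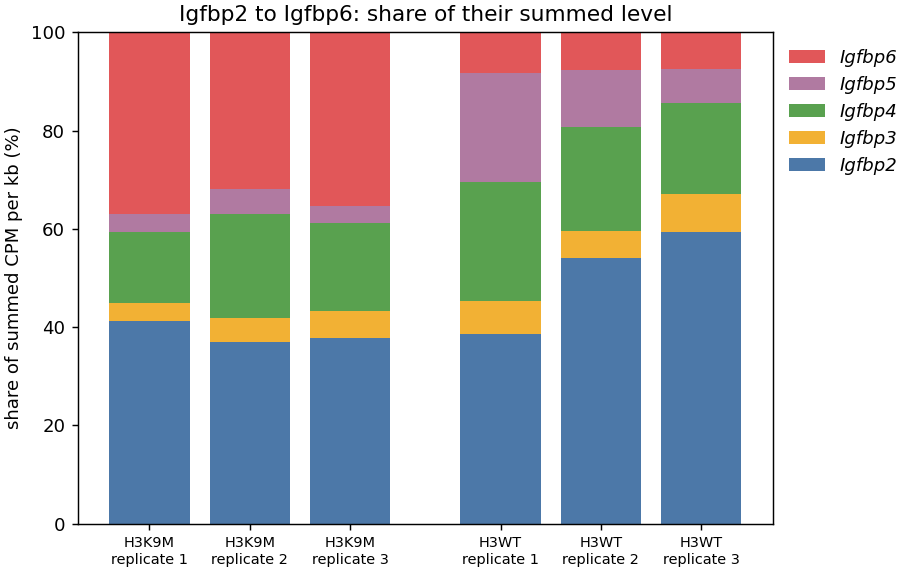
Share of each of Igfbp2 to Igfbp6 in their summed level (CPM per kilobase of exon, in percent) in each library, H3K9M on the left and H3WT on the right. Igfbp6 takes 31.98% to 36.9% in the H3K9M libraries and 7.52% to 8.33% in the H3WT libraries, and Igfbp5 reaches 22.04% in H3WT replicate 1.

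Markers of the cell types present were set beside the members. Relative to the summed fibroblast list, Igfbp2 to Igfbp5 were still lower and Igfbp6 still higher in all H3K9M libraries, with log2 ratios of -1.09 for Igfbp2, -1.24 for Igfbp3, -0.99 for Igfbp4, -2.30 for Igfbp5 and 1.43 for Igfbp6. Igf1r overlapped on that scale, but relative to the cardiomyocyte list, in CPM per 1000 CPM of its sum, it was lower in every H3K9M library (8.45, 8.70 and 8.57 in H3K9M, 11.2, 12.1 and 10.3 in H3WT). Of the 10 fibroblast genes, 1 was called higher (Ddr2, a collagen receptor, log2 fold change 0.66) and none lower, while 7 had negative fold changes and the median of the list was -0.56. The summed level of the list is carried by collagen genes and Postn. All 10 endothelial and endocardial genes had negative fold changes and 2 of them fell, Npr3 (-1.09) and Nos3 (-1.02). Relative to that list, in CPM per 1000 CPM of its sum, Igfbp2 overlapped between the groups (229, 181 and 311 in H3K9M, 379, 367 and 272 in H3WT), and so did Igfbp3, Igfbp4 and Igf1r. Igfbp5 remained lower on this scale (67.8, 80.6 and 93.1 in H3K9M, 702.5, 258 and 101 in H3WT) and Igfbp6 higher (124, 93.9 and 175 in H3K9M, 49.1, 30.9 and 20.7 in H3WT). Igfbp7 was higher on this scale too (7645, 6228 and 8311 in H3K9M, 5287, 5751 and 3579 in H3WT). The summed cardiomyocyte, smooth muscle and pericyte, epicardial and mesothelial, and macrophage lists overlapped between the groups. In the epicardial and mesothelial list, 6 genes had positive and 4 negative fold changes, with a median log2 fold change of 0.78. The keratin gene Krt8 rose, at 11.2, 11.7 and 3.82 CPM in H3K9M against 0.606, 0.883 and 1.26 CPM in H3WT (log2 fold change 3.27 ± 0.46 (SE), edgeR adjusted p = 0.0159). Msln, a mesothelial surface protein, was also higher in every H3K9M library (1.09, 1.10 and 0.838 CPM in H3K9M, 0.517, 0.360 and 0.338 CPM in H3WT) and did not pass (edgeR adjusted p = 0.186). Lrrn4 of the same list was lower in every H3K9M library (0.239, 0.346 and 0.297 CPM in H3K9M, 0.873, 1.10 and 0.691 CPM in H3WT) and did not pass either (edgeR adjusted p = 0.145). The other negative log2 fold changes were those of Aldh1a2 (-0.92), Wt1 (-0.41) and Tbx18 (-0.04), whose groups overlapped. Krt8 and Msln share the direction of the group difference with Igfbp6, but not its order among libraries. Both were lowest in H3K9M replicate 3, where Igfbp6 was highest. Within H3WT, Msln followed the order of Igfbp6 and Krt8 ran in the reverse order. The part of these genes in the Igfbp6 level was not tested. The 4 measured of 6 neural crest and Schwann markers summed to 3.36 to 4.64 CPM in H3K9M and 3.03 to 3.24 CPM in H3WT. Which cells express each member was not measured, and the part of the endothelial shift in the lower Igfbp levels was not tested.

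Beyond the 8 members, 104 other genes of the IGF axis were listed by role, of which 95 were tested. In edgeR's quasi-likelihood test with Benjamini-Hochberg adjustment, 1 of the 95 rose (1.05%) and 2 fell (2.11%), against 0.935% and 1.05% of all tested genes. Their median log2 fold change was -0.03, beside -0.002 over all tested genes, with 41 positive and 54 negative. The counts are small, and leaving out single libraries changed them between 1 and 5.

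Nov, also called Ccn3, a matricellular protein with an IGFBP domain, fell. It stood at 1.33, 1.91 and 2.32 CPM in H3K9M, against 7.88, 7.04 and 5.25 CPM in H3WT (log2 fold change -1.86 ± 0.27 (SE), edgeR adjusted p = 0.0174). The groups are far apart, at a low level. The call was lost without H3K9M replicate 2 (edgeR adjusted p = 0.0732) or H3WT replicate 2 (0.0932). None of the other 10 tested genes with an IGFBP domain passed, among them Ctgf (Ccn2), at 1479 ± 420 CPM in H3K9M and 1550 ± 408 CPM in H3WT, and Cyr61 (Ccn1), at 493 ± 272 and 426 ± 126 CPM in H3K9M and H3WT.

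Of 12 tested proteases of IGFBPs and their inhibitors, Plau rose. This gene of the urokinase plasminogen activator was at 115, 81.9 and 97.2 CPM in H3K9M, against 54.4, 60.9 and 67.9 CPM in H3WT (log2 fold change 0.68 ± 0.13 (SE), edgeR adjusted p = 0.0421). The call was lost without any 1 of H3K9M replicates 1 and 3 and H3WT replicates 1 and 2 (edgeR adjusted p = 0.0918 to 0.169). Pappa, the gene of the protease that cleaves IGFBP4, named here after its values were seen, was at 9.32, 20.1 and 44.6 CPM in H3K9M and 27.5, 35.9 and 32.01 CPM in H3WT, with the H3K9M libraries on both sides of the H3WT range (edgeR adjusted p = 0.748). The gelatinase gene Mmp2 was at 370 ± 53.0 CPM in H3K9M and 502 ± 84.9 CPM in H3WT and did not pass (edgeR adjusted p = 0.182).

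Ghr, the growth hormone receptor that drives Igf1 transcription in liver, fell as 1 of 5 tested genes of the growth hormone axis. Its level was 184, 210 and 215 CPM in H3K9M, against 277, 268 and 261 CPM in H3WT (log2 fold change -0.40 ± 0.08 (SE), edgeR adjusted p = 0.0487). The 2 groups are tight and separate. The call lay at the threshold, and it was lost in all 6 fits that left 1 library out (edgeR adjusted p = 0.0582 to 0.179) and with total counts in place of TMM (0.0513). Stat5b, a transcription factor activated by that receptor, was at 59.2 ± 2.89 CPM in H3K9M and 62.4 ± 5.44 CPM in H3WT (SD, n = 3).

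The second ligand gene, Igf2, was at 122, 192 and 149 CPM in H3K9M, against 184, 222 and 233 CPM in H3WT, and did not pass (log2 fold change -0.47 ± 0.16 (SE), edgeR adjusted p = 0.199). Per kilobase it was above Igf1 in both groups, at 27.0 ± 6.20 in H3K9M and 37.2 ± 4.46 in H3WT. Ins1 and Ins2 had no row. The receptor that clears IGF2, Igf2r, was at 786 ± 15.6 CPM in H3K9M and 722 ± 40.3 CPM in H3WT (edgeR adjusted p = 0.485). Insr, the insulin receptor gene, was at 93.3 ± 2.44 CPM in H3K9M and 96.1 ± 2.87 CPM in H3WT (edgeR adjusted p = 0.801). None of the 6 other receptor genes passed, Lrp1 with 1507 ± 179 CPM in H3K9M and 1488 ± 219 CPM in H3WT having the highest CPM.

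Downstream of the receptor, none of 34 tested adaptor and PI3K, AKT and mTOR genes passed in edgeR. Irs1, a docking protein of IGF1R, was picked after its values were seen, as the gene with the smallest adjusted p of that list. It stood at 52.8, 39.0 and 41.9 CPM in H3K9M, against 68.7, 59.7 and 68.0 CPM in H3WT (log2 fold change -0.56 ± 0.12 (SE), edgeR adjusted p = 0.0630). Its groups do not overlap. Akt1 was at 427 ± 17.3 CPM in H3K9M and 424 ± 27.0 CPM in H3WT, and Grb10, an imprinted adaptor that dampens the receptor, at 889 ± 39.7 and 969 ± 81.2 CPM in H3K9M and H3WT. None of 14 FOXO target genes passed. Of these, 9 had negative and 5 positive fold changes, with a median log2 fold change of -0.12, beside -0.002 over all tested genes. Among the 14 were Trim63, a muscle ubiquitin ligase, at 130 ± 2.05 CPM in H3K9M and 141 ± 16.1 CPM in H3WT, and Cdkn1b, a cell cycle inhibitor, at 37.6 ± 0.691 CPM in H3K9M and 48.1 ± 4.98 CPM in H3WT. Cdkn1b was lower in every H3K9M library, whereas Bcl6 and Sesn2 were higher in every one (log2 fold changes 0.29 and 0.23). Likewise none of 7 tested genes for IGF mRNA-binding proteins and imprinted regulators passed. At an unadjusted p under 0.05 in edgeR there were 21 of the 95 genes, beside 16.4% of all tested genes, and DESeq2 called 13 of the 95, beside 6.8% of all genes with an adjusted p.

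**Figure D4:**
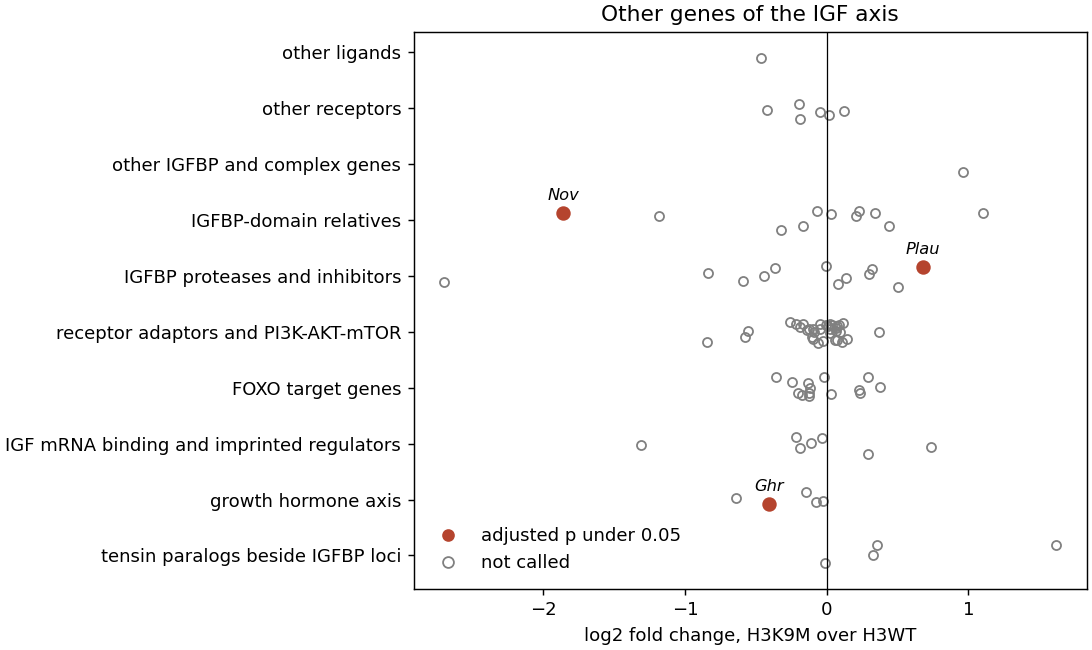
Log2 fold change of H3K9M over H3WT for the 95 other genes of the IGF axis, 1 row of points for each list, with genes past an adjusted p of 0.05 filled in red and named. Nov and Ghr lie on the lower side and Plau on the higher side, and none of the 34 receptor adaptors and PI3K, AKT and mTOR genes is filled.

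The genes beside the members were measured too. Leaving the pair Igfbp2 and Igfbp5 aside, 14 other genes were the nearest tested gene on 1 side of a member, and none of these passed in edgeR. The nearest of them were Soat2 (1.02 kb from Igfbp6), Pgpep1l (2.94 kb from Igf1r) and Spryd3 (8.13 kb from Igfbp6). Rpl37a, on the far side of Igfbp2, was at 168 ± 17.4 CPM in H3K9M and 178 ± 21.1 CPM in H3WT. Tensin genes, which encode focal adhesion proteins, sit beside several IGFBP genes, and 4 were tested. Tns1, the next tested gene beyond Igfbp5 at a distance of 1035 kb, was at 2385, 2241 and 2505 CPM in H3K9M, against 1804, 1932 and 1941 CPM in H3WT, so its fold change had the opposite sign to that of Igfbp5 (0.33 ± 0.09 (SE), edgeR adjusted p = 0.0988). Tns2 had a log2 fold change of 0.35 and Tns3, 1218 kb from Igfbp3, of -0.01, and neither passed (edgeR adjusted p = 0.103 and 0.966). Tns4, 11.3 kb from Igfbp4, had the highest log2 fold change of the 4 at a very low level, with 0.478, 1.27 and 0.593 CPM in H3K9M and 0.481, 0.180 and 0.103 CPM in H3WT. Its groups overlap and it did not pass (1.62 ± 0.70 (SE), edgeR adjusted p = 0.302).

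Genes whose levels ran most like those of Igfbp5 and Igfbp6, the members with the lowest and highest log2 fold change, were sought among 10517 genes with at least 5 CPM on average, by Pearson's r of log2(CPM + 0.5) over the 6 libraries. For Igfbp5, with a log2 fold change of -2.69, these were Trim12a (r = 0.997, log2 fold change -0.72), Fut11 (0.995, -0.38) and Lzts2 (0.994, -0.25). All 3 were also highest in H3WT replicate 1, and 405 genes had an r over 0.9. For Igfbp6 these were Nid2, a basement membrane protein (r = 0.994), Pccb, a subunit of a mitochondrial carboxylase (0.992), and Yipf4 (0.987), with 166 genes over 0.9. Their log2 fold changes were 0.71 for Nid2, 0.16 for Pccb and 0.22 for Yipf4, beside 1.31 for Igfbp6. None of Trim12a, Fut11, Lzts2, Nid2, Pccb and Yipf4 passed in edgeR. The 6 points are 2 groups of libraries with shared depth and cell mixture, so the r values describe likeness in pattern only.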

How the data were processed

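Polyadenylated RNA of 6 samples was measured, 3 H3K9M and 3 H3WT, grouped by their titles. HISAT2, featureCounts and DESeq2 with build mm10 are named in the submitters' processing notes, without versions, annotation or strand setting. The authors deposited raw counts of 15159 genes. They also deposited a table of 14691 genes holding, as a signal, normalised counts averaged over libraries, then log2 fold changes and their SE, raw and adjusted p-values, and the Wald statistic, a score that was not used. For the median gene the mean raw count was 3.97 times the authors' mean normalised count, for a reason not given in the sources used here.

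Genes were filtered with filterByExpr (minimum count 10, total 15), scaled with TMM and compared with glmQLFit and glmQLFTest of edgeR 4.0.16 (R 4.3.3). The model held the 2 groups and nothing else, and covered 14758 genes with Benjamini-Hochberg adjustment at 0.05. Each SE is the absolute log2 fold change divided by the square root of F, and its median was 0.133. The biological coefficient of variation was 18.8%. The members, the gene lists and the tests were chosen with earlier results of these data known. Other genes were named when called, when among the 3 of highest CPM in their list, when next to a member, or when most like Igfbp5 or Igfbp6. A gene that this rule names is not reported here. Older symbols (Nov, Ctgf, Cyr61) were matched through RefSeq synonyms. Lengths and positions came from GENCODE M21 and promoter windows from RefSeq (GRCm38.p6). Protein features were not analysed here. Replicates of a group differed in counts by a chi-square per gene of 26.5 to 117.8, so none is a copy of another. Alternatives were DESeq2 1.42.0, limma-voom (limma 3.58.1), other scalings, filters and thresholds, a replicate block and leaving out each library. The steps were tested on simulated data.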

Additional observations from a re-analysis of the deposited data

How the results depend on the processing

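Of 112 alternative values of the members' fold changes, 109 moved by less than 1 SD between libraries. The other 3 used only replicates 2 and 3 of both groups: -1.57 for Igfbp5, -0.45 for Igfbp4 and 1.76 for Igfbp6, and the cause was not tested. The fold changes of Igf1 and Igfbp7, near 0, took either sign when 1 library was left out (-0.25 to 0.04 and -0.13 to 0.05), and those of the other 6 members kept theirs. Among the called genes were 5 members with DESeq2 (Igf1r, Igfbp2, Igfbp3, Igfbp5 and Igfbp6). Igfbp5 was among them beside Igfbp2 and Igfbp6 with RLE factors, without a filter, without H3WT replicate 1 or with only replicates 2 and 3 of both groups. Without H3WT replicate 3, Igfbp5 was among them beside Igfbp2 only. None of the 8 was among the called genes without H3K9M replicate 2 or without H3WT replicate 2. Igfbp6 was among them in only 1 of the 6 fits without 1 library (that without H3WT replicate 1) and not at a minimum of 5 CPM in 3 libraries, and Igfbp2 in 4 of the 6. The number of genes called in all, 293, was 1010 with DESeq2 (with all 293 among them), 664 at an adjusted p under 0.1 and 60 to 372 without 1 library. The number of IGF axis genes called, 3, was 13 with DESeq2, 10 at an adjusted p under 0.1 and 1 to 5 without 1 library. With the replicate number as a block, 58 genes were called in all and 0 of the IGF axis in edgeR (20 at an unadjusted p under 0.05), nor any member. Whether the numbers pair the samples is not stated. In the titles, both replicate 1 libraries share an M tag and so do both replicate 3 libraries, while those of replicate 2 differ. The deviations of same-numbered libraries from their group means correlated at -0.157, 0.035 and -0.069. H3K9M replicate 1 correlated best with H3WT replicate 3 (0.163), and H3K9M replicates 2 and 3 with H3WT replicate 1 (0.072 and 0.094). Of the H3WT libraries, only replicate 2 correlated best with its own number. With 3 libraries a group, these values cannot decide whether the samples are paired. With the longest transcript as length, Igf1r and Igfbp6 swapped places 3 and 4 in the order of levels in H3K9M. Relative to the endothelial list, a choice made after seeing the data, the log2 ratio of Igfbp2 was -0.52, that of Igfbp4 -0.42 and that of Igfbp3 -0.66, while that of Igf1r turned positive, at 0.36 (-0.21 relative to the fibroblast list and -0.38 relative to the cardiomyocyte list), beside 0.58 for Igf1 and 0.62 for Igfbp7. With only replicates 2 and 3, 3 IGF axis genes were called, 1 of them shared. All counts are limited by 3 libraries a group.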

Other observations

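Stc1 was picked after its values were seen, outside the naming rule. Its product, a stanniocalcin known as an inhibitor of PAPP-A, is counted among the protease inhibitors. Stc1 was at 0.393, 0.477 and 0.489 CPM in H3K9M, against 5.54, 2.04 and 1.28 CPM in H3WT. Like Igfbp5 it was highest in H3WT replicate 1. Its log2 fold change of -2.70 ± 0.56 (SE) stood next to that of Igfbp5 among all tested genes, as the 24th lowest, and did not pass (edgeR adjusted p = 0.0531, 0.0203 to 0.184 over the edgeR and limma-voom alternatives, 0.112 of these without H3WT replicate 1, and 4.2e-05 with DESeq2). H19, the imprinted noncoding neighbour of Igf2, was at 64.6, 168 and 62.1 CPM in H3K9M, against 275, 258 and 197 CPM in H3WT, and did not pass (edgeR adjusted p = 0.111). Socs2, a feedback inhibitor of growth hormone signalling, was at 44.1, 44.5 and 50.3 CPM in H3K9M, against 88.8, 72.7 and 54.9 CPM in H3WT (edgeR adjusted p = 0.0851).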
